A study of Mus musculus with 20 samples.

Results

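Pseudouridine synthases convert uridine to pseudouridine within RNA chains, and transcripts of 10 of them were followed in the liver of mice given polychlorinated biphenyls (PCBs) on a high-fat diet (HFD). The 10 genes, of 21780 in the count table, were chosen by name: Pus1, Pus3, Pus7, Pus7l, Pus10, Trub1, Trub2, Rpusd3, Rpusd4 and Dkc1. All 10 passed the filter of at least 10 counts summed over the libraries, as did 15522 genes in all. The mice were male C57Bl/6J, 8 weeks old at the start, all fed a diet with 42% of calories from fat. The 4 groups of 5 mice differed in a single oral gavage given after 2 weeks of the diet. HFD control mice received corn oil, HFD + Aroclor 1260 mice a commercial mixture of mostly non-dioxin-like PCBs at 20 mg/kg, HFD + PCB 126 mice a dioxin-like congener at 20 µg/kg, and HFD + Aroclor 1260 + PCB 126 mice both at these doses (the combined exposure). The labels give 12 weeks of exposure, while the methods give 10 weeks between gavage and collection. No group without the high-fat diet was analysed here, and all values describe whole liver, in which fewer cells of a type and less RNA per cell cannot be told apart.

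Pseudouridine is formed by rotating the uracil base so that it joins the ribose through a carbon instead of a nitrogen, which adds a hydrogen-bond donor and stiffens the RNA backbone. Most of these enzymes act alone and recognise their target RNA directly, while dyskerin, the product of Dkc1, is directed to ribosomal and small nuclear RNA by box H/ACA guide RNAs. Pseudouridine is abundant in transfer, ribosomal and small nuclear RNA and also occurs in messenger RNA. In hepatocytes, dioxin-like PCBs activate the aryl hydrocarbon receptor, which binds DNA at elements with the core GCGTG.

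Reads were mapped and counted per gene by the authors, with total counts of 21836506 to 36854887 per library. Levels are given as CPM (a count scaled to the library's effective size after TMM normalization in edgeR), and log2 fold changes (log2FC) with standard errors come from edgeR's quasi-likelihood test over all 4 groups. A gene is said to have risen or fallen at an adjusted p under 0.05, adjusted by the Benjamini-Hochberg method over 15522 genes. PCB 126 could be traced in the libraries by Cyp1a2, a classical target of the aryl hydrocarbon receptor, which rose with PCB 126 (386.6 ± 99.4 CPM in HFD control, SD, n = 5; 1590.2 ± 606 CPM with PCB 126; log2FC 2.04, edgeR adjusted p = 0.000294) and with the combined exposure (775.0 ± 186 CPM; log2FC 1.00, adjusted p = 0.00325). Its relative Cyp1a1 rose with PCB 126 (log2FC 6.93, adjusted p = 0.00950), carried by replicates 4 and 5 at 314 and 62.1 CPM against 4.09 to 7.80 CPM in the other mice. Cyp1a1 did not pass when only the PCB 126 and HFD control groups were fitted (log2FC 6.96, edgeR adjusted p = 0.181). In the combined exposure Cyp1a1 lay between 0.792 and 2.62 CPM, overlapping the 0.219 to 0.940 CPM of HFD control (log2FC 1.06, adjusted p = 0.502). Aroclor 1260 was not traced at the threshold, since 0 of the 4 exposure genes read passed with it. Cyp1a2 had a log2FC of −0.0075 (adjusted p = 0.988), and Cyp2b10, a target of the constitutive androstane receptor, had one of 1.97 (adjusted p = 0.222, unadjusted p = 0.0155). A further difference among libraries was the relation of log2 CPM to transcript GC content. Its slope for each 10 percentage points lay between 0.085 and 0.42 in HFD control, between −0.095 and 0.11 with Aroclor 1260, between −0.097 and 0.35 with PCB 126 and between −0.54 and −0.12 with the combined exposure, so the slopes of HFD control and combined exposure did not overlap.

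The start regions of Pus1, Pus7 and Pus10 are shown because these members passed with the combined exposure in all 10 fits leaving out a mouse. A further reason is that PCB 126 acts through a factor with a known DNA core. After correction for transcript GC content (below), none of these 3 members passed. Each window holds 250 bases before and 50 after a RefSeq start site (GRCm38.p6), written in the direction of transcription, with the letters GCGTG or their reverse complement CACGC in capitals. The window of Pus1 is chr5:110780566-110780865 (minus strand), that of Pus7 is chr5:23783662-23783961 (minus strand) and that of Pus10 is chr11:23665424-23665723 (plus strand).
Pus1: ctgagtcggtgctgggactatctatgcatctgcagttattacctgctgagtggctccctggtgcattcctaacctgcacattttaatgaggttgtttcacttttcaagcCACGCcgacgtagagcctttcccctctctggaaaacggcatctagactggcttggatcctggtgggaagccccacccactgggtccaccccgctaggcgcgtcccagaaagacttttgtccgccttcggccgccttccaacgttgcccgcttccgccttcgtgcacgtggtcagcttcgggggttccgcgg
Pus7: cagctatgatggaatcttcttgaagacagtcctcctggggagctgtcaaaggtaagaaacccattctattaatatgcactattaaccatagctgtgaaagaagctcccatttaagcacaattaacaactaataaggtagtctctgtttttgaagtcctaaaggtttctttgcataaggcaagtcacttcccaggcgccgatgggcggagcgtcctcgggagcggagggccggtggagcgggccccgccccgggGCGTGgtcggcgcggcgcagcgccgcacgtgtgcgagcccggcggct
Pus10: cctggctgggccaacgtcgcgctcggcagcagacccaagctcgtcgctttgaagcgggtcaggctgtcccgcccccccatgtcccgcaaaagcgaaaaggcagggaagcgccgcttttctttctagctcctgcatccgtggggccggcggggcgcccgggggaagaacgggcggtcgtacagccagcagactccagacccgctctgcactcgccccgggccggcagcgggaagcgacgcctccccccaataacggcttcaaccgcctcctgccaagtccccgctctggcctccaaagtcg
Pus1 held 1 CACGC, Pus7 held 1 GCGTG, and the Pus10 window held neither. All 10 members matched the RefSeq table, with 14 windows. In the window nearest to the annotated start, 5 of 10 members held the core on either strand (Pus1, Pus7, Pus7l, Trub2 and Rpusd3), and 8 of the 14 windows did. Of all 32851 windows of this length in the table, 32.4% held it. The core contains the letters CG, which occurred 9 to 44 times in the members' nearest windows, against a median of 7 over all windows. The 14 windows include overlapping ones of Pus1 and of Rpusd3. The second window of Pus10, which starts from a site 318 bases away, held the core 2 times. The match describes the letters in these windows and no binding was measured.

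With the combined exposure, 5 of the 10 synthase transcripts changed. Pus10, Pus7 and Dkc1 rose, by 1.56, 1.36 and 1.24 times, and Pus1 and Rpusd3 fell, to 0.608 and 0.644 times the level of HFD control. Of all tested genes, 32.8% passed the same threshold, 15.8% higher and 17.0% lower. The median log2FC of the 10 members was 0.19 and that of all tested genes −0.00096. In 3 members (Pus7, Pus10 and Dkc1) every mouse of the combined exposure lay above every HFD control mouse, and in 0 below. Such separations were found in 18.8% of all genes, 10.6% upward and 8.14% downward, and an unadjusted p under 0.05 in 42.4%. In HFD control the 10 members summed to 113 ± 1.21 CPM (SD over 5 mice). The sum was 117 ± 8.22 CPM in the Aroclor 1260 mice, 123 ± 7.498 CPM in the PCB 126 mice and 126 ± 7.03 CPM in those given both. These calls moved with the GC slope of the libraries, and after correction for it 0 of 10 members passed (values below).

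**Figure D1:**
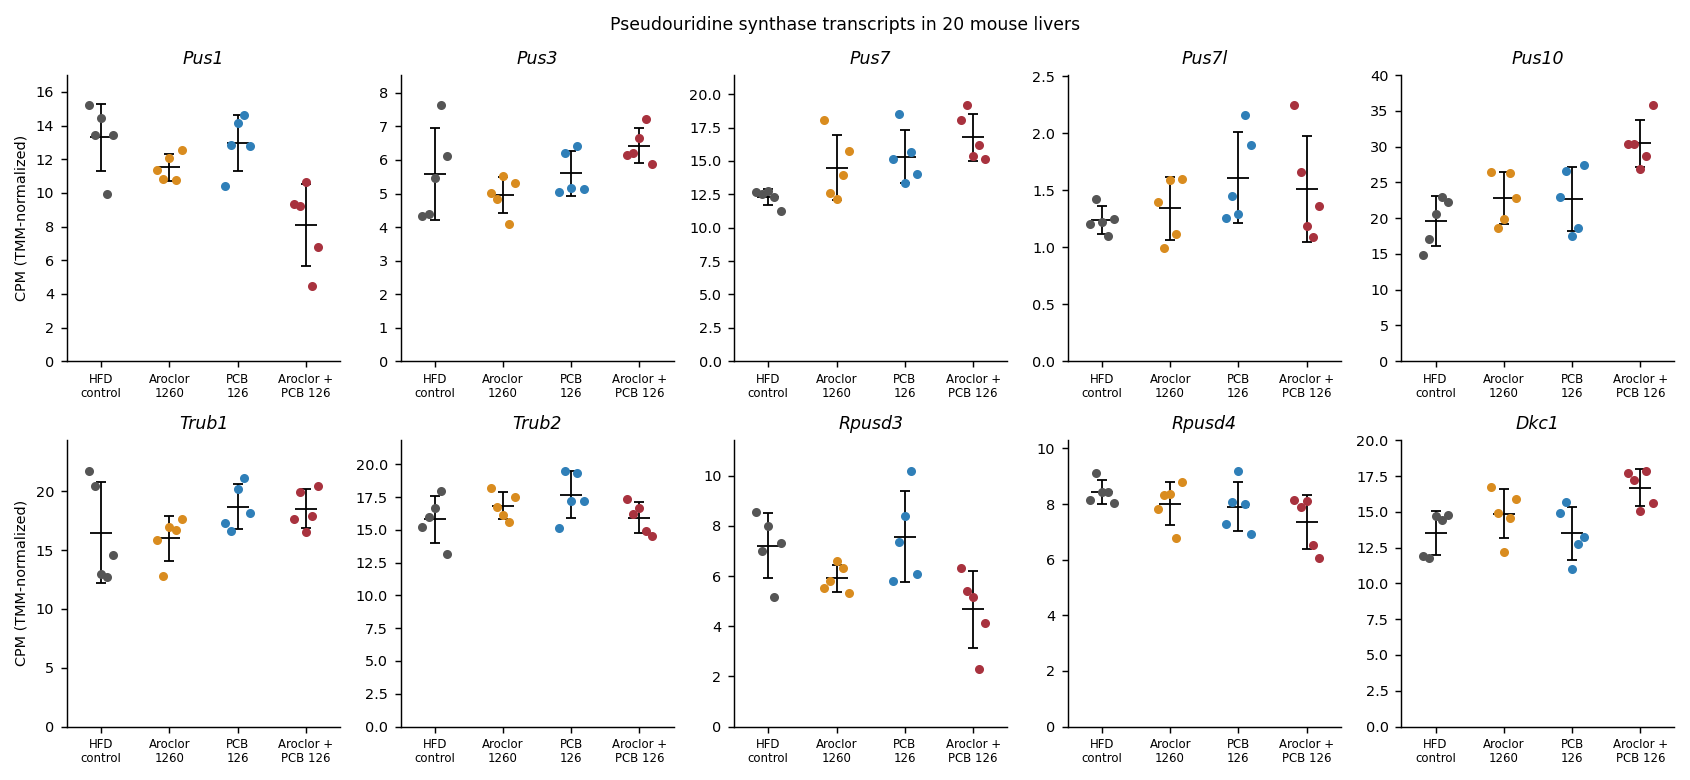
Transcript level (CPM after TMM normalization, linear axis from 0) of the 10 pseudouridine synthases, 1 point per mouse, 5 mice per group, with the group mean and SD in black. With the combined exposure Pus1 lies between 4.47 and 10.7 CPM against 9.96 to 15.2 CPM in HFD control, while Pus10 lies between 26.9 and 35.8 CPM against 14.8 to 23.0 CPM.

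Pus1 (ENSMUSG00000029507), on the minus strand of chromosome 5 between 110773667 and 110780659 in GRCm38, modifies transfer RNAs of the cytosol and of mitochondria, and its loss in humans causes a myopathy with sideroblastic anaemia. Its 5 HFD control mice, replicates 1 to 5, had 15.2, 13.4, 14.5, 9.96 and 13.4 CPM. The mice of the combined exposure had 9.33, 9.20, 10.7, 4.47 and 6.78 CPM. HFD control replicate 4 was the lowest control and lay below 1 mouse of the combined exposure, replicate 3, so the groups overlapped by that pair. Its log2FC of −0.72 had a standard error of 0.171 (adjusted p = 0.00400 in edgeR). The single exposures, at 10.8 to 12.5 CPM with Aroclor 1260 and 10.4 to 14.6 CPM with PCB 126, overlapped HFD control.

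Pus10 (ENSMUSG00000020280; chromosome 11, from 23665674 to 23732876, plus strand) modifies the T loop of transfer RNAs and also takes part in microRNA processing. Its HFD control mice had 14.8, 17.1, 20.6, 23.0 and 22.3 CPM, and those of the combined exposure 30.4, 30.4, 26.9, 28.7 and 35.8 CPM. All 5 combined mice were above all 5 controls, and the lowest was replicate 3, the mouse with the highest Pus1. The log2FC of Pus10 was 0.64 (standard error 0.147, adjusted p = 0.00320). With Aroclor 1260 it lay between 18.6 and 26.4 CPM and with PCB 126 between 17.5 and 27.4 CPM, both overlapping HFD control. Only 2 of its 4325 exon bases are shared with the antisense gene Pex13.

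Pus7 (ENSMUSG00000057541; chromosome 5, from 23740648 to 23783711, minus strand) modifies transfer RNAs and messenger RNAs at a short sequence motif. It had the narrowest spread of the changed members in HFD control, with 12.7, 12.6, 12.8, 12.3 and 11.2 CPM, and reached 18.04, 19.2, 15.4, 16.2 and 15.1 CPM with the combined exposure. The groups did not overlap, and the log2FC was 0.45 (standard error 0.114, adjusted p = 0.00590). PCB 126 alone gave 15.1, 18.5, 13.3, 15.6 and 14.0 CPM, also above every control mouse, with a log2FC of 0.32 (standard error 0.114) that did not pass the threshold (adjusted p = 0.216). With PCB 126 2.15% of all genes separated from HFD control, 1.24% upward and 0.908% downward. With Aroclor 1260, Pus7 was measured at 12.1 to 18.1 CPM, and the log2FC was 0.24 (adjusted p = 0.290). Its close relative Pus7l (ENSMUSG00000033356) had the lowest level per length in every group and rested on 25 to 55 counts per library. Pus7l lay at 1.10 to 1.43 CPM in HFD control, and its highest values were 2.16 CPM in a PCB 126 mouse and 2.24 CPM in a combined exposure mouse. The log2FC was 0.37 with PCB 126 (adjusted p = 0.448) and 0.28 with the combined exposure (standard error 0.223, adjusted p = 0.371).

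Pus3 and Trub1, which modify the anticodon arm and the T loop of transfer RNAs, did not pass the threshold. Pus3 (ENSMUSG00000032103) had 5.58 ± 1.37 CPM in HFD control and 6.43 ± 0.529 CPM with the combined exposure (SD, n = 5; log2FC 0.21, standard error 0.143, adjusted p = 0.282). Its control mice ranged from 4.34 to 7.63 CPM, and without the highest of them, replicate 4, the log2FC was 0.35 (edgeR adjusted p = 0.0472). The antisense gene Hyls1 shares 88.1% of the exon bases of Pus3, and whether reads were counted by strand is not given in the sources used here, so the counts of Pus3 are uncertain. Hyls1 itself was counted at 0.839 to 1.51 CPM in HFD control. Trub1 (ENSMUSG00000025086) split within HFD control, where replicates 1 and 2 had 21.8 and 20.5 CPM and replicates 3 to 5 had 12.9, 12.7 and 14.6 CPM. The combined exposure, at 16.5 to 20.5 CPM, lay above these 3 controls and, but for replicate 5, below the other 2, and the log2FC was 0.16 (standard error 0.141, adjusted p = 0.409). Control replicates 1 and 2 also had the highest GC slopes of their group (0.42 and 0.30) and its highest depths. Transcripts of Trub1 have a GC content of 46.7%. Genes of 45% to 50% GC were mostly higher, at a median log2FC of 0.17, in the combined exposure, whose slopes were lower. Whether the split of Trub1 is related to slope or depth was not tested.

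Trub2, Rpusd3 and Rpusd4 act in mitochondria, where Rpusd4 modifies the large ribosomal RNA and Trub2 and Rpusd3 modify messenger RNAs of the respiratory chain. Rpusd3 (ENSMUSG00000051169; chromosome 6, from 113415319 to 113419340, minus strand) fell with the combined exposure, from 8.57, 7.02, 8.01, 5.18 and 7.31 CPM in HFD control to 6.34, 5.41, 5.18, 2.29 and 4.13 CPM. Control replicate 4 was again low, and the lowest value was that of combined exposure replicate 4, which was also lowest for Pus1 and had the lowest GC slope of all libraries (−0.54). The log2FC was −0.63 (standard error 0.208, adjusted p = 0.0246). The call rested on single mice, since the adjusted p was 0.0648 without control replicate 1, 0.0504 without control replicate 3 and 0.0610 without combined exposure replicate 5, and it was 0.0665 when only these groups were fitted. The other mitochondrial members did not pass. Rpusd4 (ENSMUSG00000032044) had 8.43 ± 0.424 CPM in HFD control and 7.35 ± 0.979 CPM with the combined exposure (SD, n = 5; log2FC −0.20, standard error 0.107, adjusted p = 0.163). Trub2 (ENSMUSG00000039826) had 15.8 ± 1.78 and 15.9 ± 1.18 CPM, with a log2FC of 0.013 (95% interval −0.18 to 0.21, adjusted p = 0.939) whose sign changed with other normalizations. Trub2 shares 14.6% of its exon bases with the antisense gene Coq4, counted at 7.98 to 12.1 CPM in HFD control and 5.60 to 8.82 CPM with the combined exposure.

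The partners of the mitochondrial members, proteins found with them in the RNA granules of mitochondria, did not move as a block. Of 3 such genes, Fastkd2 rose (log2FC 0.29, standard error 0.0907, edgeR adjusted p = 0.0196), Rcc1l fell (−0.70, standard error 0.161, adjusted p = 0.00323) and Ngrn did not pass, where 15.8% of all genes rose and 17.0% fell. The adjusted p of Fastkd2 reached 0.0891 without combined exposure replicate 4, and it was over 0.05 without combined exposure replicate 5 or without control replicate 1 or 2. The median log2FC of the 3 genes was −0.16. The transcripts of Fastkd2 have a GC content of 41.2% and those of Rcc1l one of 57.0%.

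Dkc1 (ENSMUSG00000031403; chromosome X, from 75095854 to 75109777, plus strand) encodes dyskerin, the catalytic subunit of the box H/ACA particles that modify ribosomal RNA and also accompany telomerase RNA. HFD control mice had 11.9, 11.8, 14.7, 14.4 and 14.7 CPM, and the combined exposure 17.7, 17.2, 15.1, 17.9 and 15.6 CPM. The highest controls and the lowest combined mice were separated by less than the spread within either group. The log2FC was 0.31 (standard error 0.110, adjusted p = 0.0382), and it passed in 5 of the 10 fits that left out a mouse. The adjusted p reached 0.142 without combined exposure replicate 4 and 0.125 without control replicate 2, and it was over 0.05 without control replicate 1 or combined exposure replicates 1 or 2. It was also over 0.05 with RLE size factors (0.0526), with only these groups fitted (0.0527) and with the replicate number as a block (0.0508). Aroclor 1260 gave 12.2 to 16.7 CPM and PCB 126 gave 11.0 to 15.7 CPM.

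**Figure D2:**
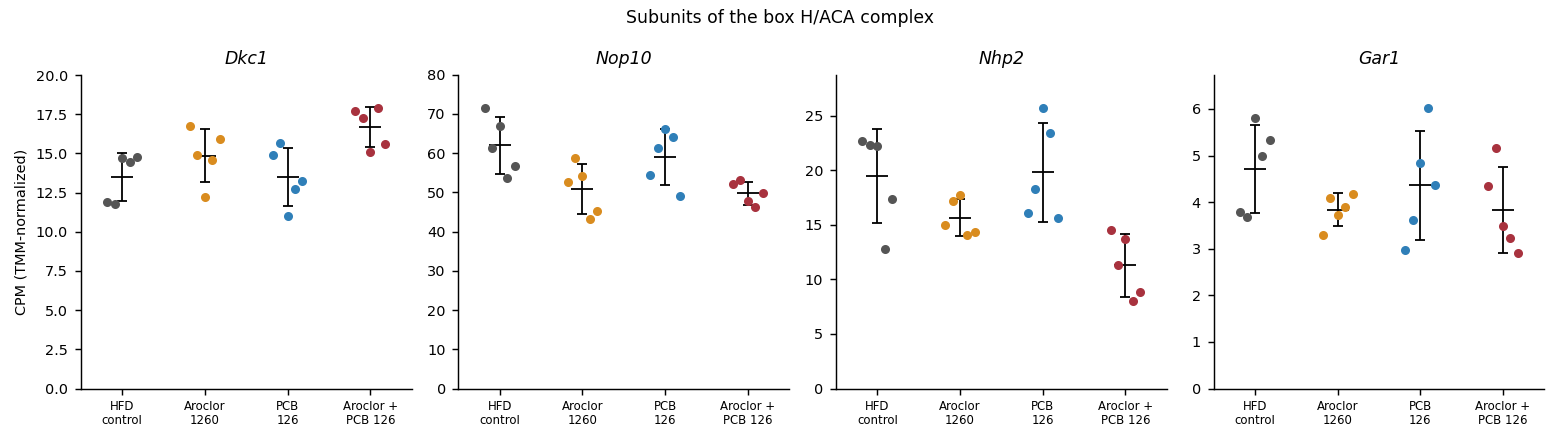
Transcript level (CPM after TMM normalization, linear axis from 0) of dyskerin (Dkc1) and the 3 other core subunits of the box H/ACA particle, 1 point per mouse, with the group mean and SD (5 mice per group). Dkc1 with the combined exposure lies above every HFD control mouse, Nop10 lies below every one, and Nhp2 and Gar1 overlap HFD control.

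The other core subunits of the particle went down where they moved. Nop10, a small scaffold bound to dyskerin, had 71.5, 61.3, 66.8, 53.6 and 56.8 CPM in HFD control and 52.2, 53.1, 47.8, 46.2 and 49.8 CPM with the combined exposure. Every combined mouse was below every control, with a log2FC of −0.32 (standard error 0.105, adjusted p = 0.0255 in edgeR). The adjusted p was 0.0797 without control replicate 1 and 0.0582 without control replicate 3. Nhp2, which contacts the guide RNA, had 22.7, 22.3, 22.2, 12.8 and 17.4 CPM in HFD control and 14.5, 11.3, 13.7, 8.03 and 8.81 CPM with the combined exposure (log2FC −0.79, standard error 0.185, adjusted p = 0.00358). Only the low control replicate 4 lay within the range of the combined mice. Gar1 had 4.72 ± 0.944 and 3.83 ± 0.915 CPM (SD, n = 5; log2FC −0.30, adjusted p = 0.242). So 2 of the 3 partners fell while Dkc1 rose, against 17.0% and 15.8% of all genes, and the median log2FC of the 3 was −0.32.

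Of the 5 factors that assemble the particle, Naf1, which holds the place of Gar1 in the nascent particle, rose (4.73 ± 0.646 to 7.09 ± 0.678 CPM, log2FC 0.59, standard error 0.123, adjusted p = 0.00193), and the ATPases Ruvbl1 and Ruvbl2 fell (log2FC −0.36, adjusted p = 0.0191, and −0.69, adjusted p = 0.00651). Shq1, the chaperone of dyskerin, and Nufip1 did not pass. These 3 calls of 5 stand beside 32.8% of all genes. The median log2FC of the 5 factors was 0.029. The adjusted p of Ruvbl1 was 0.0563 without control replicate 3 and 0.0535 without control replicate 4. Ruvbl2 shares 10.7% of its exon bases with the antisense gene Gys1. Of the 3 remaining genes of the synthase family in the annotation, Rpusd1 fell, at 0.713 to 1.36 CPM in HFD control and 0.213 to 0.616 CPM with the combined exposure (log2FC −1.28, standard error 0.283, edgeR adjusted p = 0.00263). It was low, with 5 to 15 counts per library in the combined exposure. Pusl1 (log2FC −0.37, adjusted p = 0.0925, and 0.0471 without control replicate 5) and Rpusd2 (log2FC 0.16, adjusted p = 0.687) did not pass, and Pusl1 shares 29.9% of its exon bases with the antisense gene Ints11. The median log2FC of these 3 genes was −0.37.

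**Figure D3:**
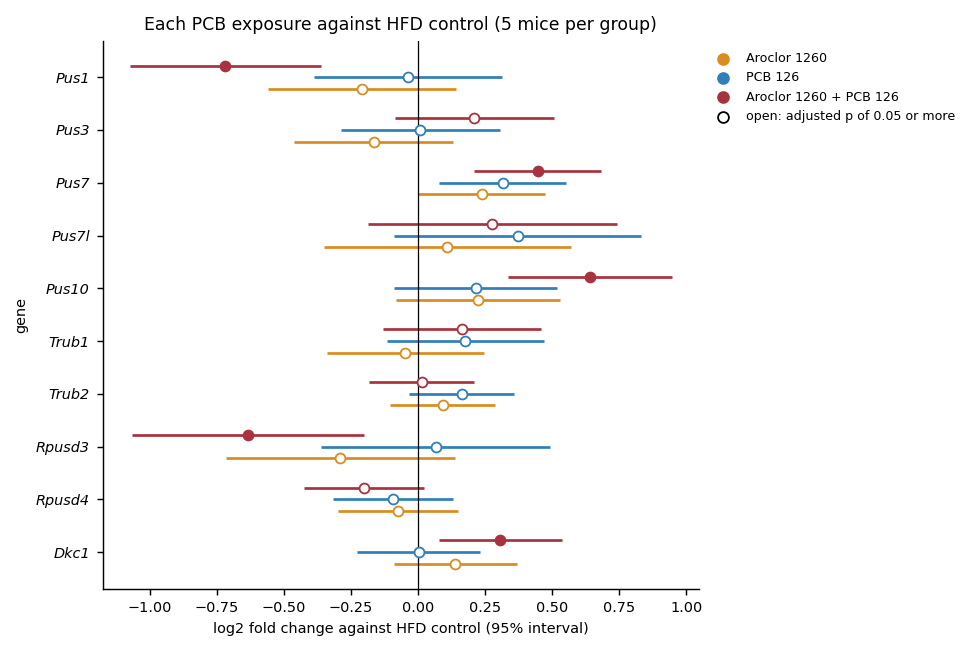
Log2 fold change of each synthase against HFD control (x axis, points with 95% intervals) for Aroclor 1260, PCB 126 and the combined exposure, 5 mice per group. Filled points have an edgeR adjusted p under 0.05, which only Pus1, Pus7, Pus10, Rpusd3 and Dkc1 reached, all with the combined exposure.

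Neither single exposure moved a member past the threshold. With Aroclor 1260, 0 of 10 members and 0 of 15522 genes (0%) had an edgeR adjusted p under 0.05, while 0 members and 17.2% of all genes had an unadjusted p under 0.05, and DESeq2 also called 0 members. No member separated from HFD control with Aroclor 1260, as 2.94% of all genes did (1.74% upward and 1.20% downward). The log2FC ran from −0.29 for Rpusd3 to 0.24 for Pus7, with a smallest adjusted p of 0.290. With PCB 126, 0 of 10 members passed, as did 0.116% of all genes (0.103% higher and 0.0129% lower). Its log2FC ran from −0.095 for Rpusd4 to 0.37 for Pus7l. Pus7 alone had an unadjusted p under 0.05 with PCB 126, as 14.7% of all genes did, and DESeq2 called 0 members there too. The 3 exposures share the same 5 control mice. For Pus1 the log2FC was −0.21 with Aroclor 1260, −0.037 with PCB 126 and −0.72 with both. For Pus10 these values were 0.22, 0.21 and 0.64, for Rpusd3 −0.29, 0.065 and −0.63, and for Dkc1 0.14, 0.0016 and 0.31. The interaction, the departure of both agents together from the added log2 changes of each, passed for 0 of 10 members and 0% of all genes. The smallest adjusted p of a member was 0.440 (Pus1, log2FC −0.47, 95% interval −0.97 to 0.027), and 0 members had an unadjusted p under 0.05 by edgeR, as 11.9% of all genes did, and 0 an adjusted p under 0.05 by DESeq2. Departures from the sum were not detectable at this spread between mice.

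Set directly against PCB 126, the combined exposure gave 3 called members of 10, with 16.7% of all genes called (5.64% higher and 11.0% lower). Pus1 (log2FC −0.68, standard error 0.171, edgeR adjusted p = 0.0174) and Rpusd3 (−0.70, standard error 0.208, adjusted p = 0.0305) were lower and Pus10 was higher (0.43, standard error 0.146, adjusted p = 0.0497). The groups overlapped for all 3, while 9.91% of all genes separated (3.97% upward and 5.94% downward). An unadjusted p under 0.05 was found for 4 members and 35.6% of all genes. The split of all called genes was 875 higher and 1714 lower, and with upper-quartile factors 1365 higher and 1740 lower. After the GC correction described below, 0 members and 0 genes in all were called, against 2589 genes as fitted. Pus1 was then at −0.41 (adjusted p = 0.155), Rpusd3 at −0.30 (adjusted p = 0.340) and Pus10 at 0.10 (adjusted p = 0.663). When each mouse was left out, the number of calls also ranged from 0 to 4 members and from 4 to 3416 genes in all. Without PCB 126 replicate 3 or 4 all 3 were lost, with adjusted p of 0.0575 and 0.0559 for Pus1, 0.0846 and 0.0998 for Rpusd3 and 0.145 and 0.134 for Pus10. Without combined exposure replicate 5 the values were 0.0573 for Pus1, 0.0789 for Rpusd3 and 0.127 for Pus10, and without its replicate 4 Rpusd3 had 0.0579. The adjusted p of Pus10 was 0.0505 with no filter on low counts, and its call was also lost without PCB 126 replicate 1 or combined exposure replicates 1, 2 or 4. Against Aroclor 1260, 0 of 10 members and 0.412% of all genes passed by edgeR (0.103% higher and 0.309% lower), with 3 members (Pus1, Pus3 and Pus10) and 23.4% of all genes at an unadjusted p under 0.05. DESeq2, which gave an adjusted p for 9 members, called 2 (Pus1 and Pus10), and 1343 of 10664 genes in all. The following values are again from edgeR. The log2FC ran from −0.51 for Pus1 to 0.42 for Pus10, and the smallest adjusted p was 0.102. It was 0.0407 for Pus1 without combined exposure replicate 3. Pus3 and Pus10 were above, and Pus1 below, every Aroclor 1260 mouse, separations found in 6.76% of all genes, 2.59% upward and 4.17% downward. Of the partner genes above, 0 passed with either single exposure by edgeR, with Nop10 at an unadjusted p under 0.05 with Aroclor 1260.

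The change of the members with the combined exposure followed the GC content of their transcripts. The members that rose have transcripts of 43.3% (Pus10), 44.8% (Dkc1) and 46.8% GC (Pus7), and the members that fell have 56.5% (Pus1) and 59.5% (Rpusd3). Across the 10 members the log2FC and the GC content had a Pearson r of −0.91 and a Spearman rho of −0.77, and across 15516 genes r was −0.55 and rho −0.68. Genes are not independent replicates, and these points share the same 10 libraries. Genes between 40% and 45% GC had a median log2FC of 0.42, those between 45% and 50% one of 0.17, and those between 55% and 60% one of −0.53. With Aroclor 1260 and PCB 126 the r over the 10 members was −0.63 and −0.32. The lowest GC slopes were those of combined exposure replicates 4 and 5, the mice with the lowest Pus1 and Rpusd3, and the highest slope of that group was that of replicate 3, with the highest Pus1 and the lowest Pus10.

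**Figure D4:**
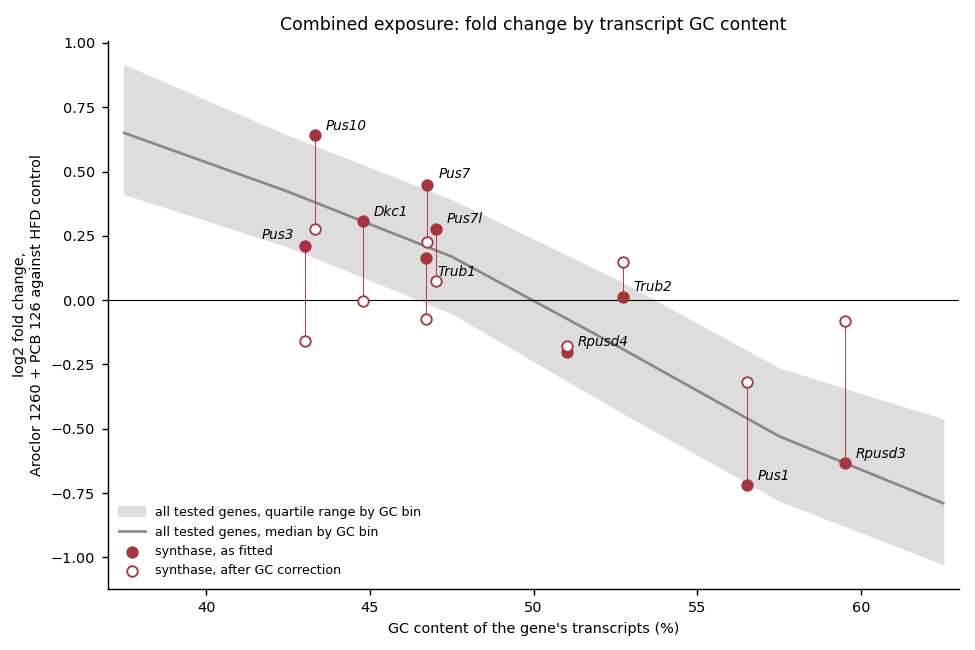
Log2 fold change of the combined exposure against HFD control (y axis) by the GC content of the gene's transcripts in percent (x axis). Filled points are the 10 synthases as fitted and open points the same genes after GC correction, joined by a line, while the grey line and band are the median and quartile range of all tested genes in bins of 5 percentage points. After correction the largest distance of a synthase from 0 is 0.32.

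When each library's smooth GC trend was taken out (GC correction), 0 of the 10 members passed with the combined exposure, and 4.30% of all genes did. Pus1 was then at −0.32 (edgeR adjusted p = 0.221), Pus10 at 0.28 (adjusted p = 0.168), Pus7 at 0.23 (adjusted p = 0.293), Rpusd3 at −0.081 (adjusted p = 0.848) and Dkc1 at −0.0047 (adjusted p = 0.986). An unadjusted p under 0.05 remained for 2 members, and the r with GC content was −0.43. Of the partners, Nop10 still passed (log2FC −0.55, adjusted p = 0.0315), while Nhp2 (−0.43, adjusted p = 0.123), Naf1 (0.38, adjusted p = 0.0682), Ruvbl1 (−0.29, adjusted p = 0.160), Ruvbl2 (−0.22, adjusted p = 0.425), Rcc1l (−0.27, adjusted p = 0.251), Fastkd2 (−0.19, adjusted p = 0.174) and Rpusd1 (−0.75, adjusted p = 0.0854) did not. Cyp1a2 passed as well (1.09, adjusted p = 0.0208). Neither call was kept with each library's GC slope as a covariate instead. Nop10 was then at −0.011 (edgeR adjusted p = 0.991) and Cyp1a2 at 1.38 (adjusted p = 0.143). The GC slope moved with the groups, and an effect of the exposure on GC-rich transcripts and a difference between libraries cannot be told apart in these samples.

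The level of each synthase per length of exon, in RPKM (the CPM divided by the kilobases of exon), allows the genes to be compared roughly with each other. The length is that of all annotated exons of a gene merged, whether or not the liver uses them. These levels are not corrected for the GC slopes of the libraries, and the counts of Pus3 are uncertain, as said above. In HFD control Pus1 was the highest, at 6.10 ± 0.922 RPKM (SD, n = 5), followed by Pus10 at 4.52 ± 0.807 RPKM. Rpusd3, Dkc1, Rpusd4, Trub1 and Trub2 followed at 3.34, 3.28, 3.19, 2.95 and 2.50 RPKM, and Pus3 and Pus7 at 1.88 and 1.48 RPKM. Pus7l was last at 0.376 ± 0.0364 RPKM. Neighbours in this order overlapped over the mice except Pus7 and Pus7l. With the combined exposure Pus10 stood first, at 7.04 ± 0.768 RPKM, and Pus1 came after Dkc1 (4.05 RPKM), at 3.71 ± 1.13 RPKM, and their ranges of 6.21 to 8.27 and 2.05 to 4.89 RPKM did not overlap. In both single exposures Pus1 remained first and Pus10 second by the mean.

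For each changed member, the genes with the most similar course over the 20 libraries were taken by the root-mean-square difference of log2 CPM after centring, among 11341 genes with a mean of at least 1 CPM. Closest to Pus1 were Rbck1, Tmem214 and Asna1, at 0.087, 0.090 and 0.097 log2 units, where Pus1 itself varied by 0.40 around its mean. Closest to Pus10 were Pcmtd1, Cped1 and 0610010F05Rik, at 0.079, 0.093 and 0.094 log2 units. Among the nearest to Pus7 were Plekha3 and Immt (0.11 and 0.12), among those to Rpusd3 were Alg1 and Hpn (0.13 each), and Dkc1 was followed most nearly by Ctcf, Cpsf2 and Efcab14 (0.077 to 0.092). The 20 libraries share the GC slopes given above, and the genes near Pus1 have transcripts of 54.6% to 59.1% GC and those near Pus10 of 38.3% to 45.2% GC.

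Markers of the liver's cell types were read in the same libraries. The 6 hepatocyte markers summed to between 97211 and 103851 CPM in HFD control and between 92724 and 121914 CPM with the combined exposure. Of all genes 32.8% passed in this comparison (15.8% higher and 17.0% lower), and within that list 3 fell (Apoa1, log2FC −0.78, edgeR adjusted p = 0.00193; Ttr, −0.70, adjusted p = 0.00552; Serpina1c, −0.46, adjusted p = 0.0454) and Alb, Cyp2e1 and Cps1 did not pass. Of 5 macrophage markers Adgre1 rose (0.82, adjusted p = 0.0248), with a sum of 170 to 393 CPM in HFD control and 222 to 307 CPM with the combined exposure. Of 4 stellate cell markers Lrat (0.85, adjusted p = 0.00931) and Reln (0.45, adjusted p = 0.0274) rose and Des fell (−1.38, adjusted p = 0.00574), with sums of 55.7 to 109 and 97.5 to 126 CPM. Stab2 of 4 endothelial markers fell (−0.50, adjusted p = 0.00770; sums of 70.0 to 149 and 98.2 to 122 CPM). Of the 3 genes listed for lymphocytes, Ptprc, which is not specific to them, rose (0.78, adjusted p = 0.00818), and Cd3e and Cd79a did not pass. The sums of 7.37 to 14.5 and 13.5 to 17.4 CPM were mostly Ptprc, at 6.89 to 12.4 and 12.5 to 16.5 CPM. Of the 4 cholangiocyte markers (3.93 to 8.21 and 3.24 to 7.73 CPM) and the 2 neutrophil markers (1.07 to 4.47 and 1.70 to 2.80 CPM) 0 passed by edgeR, with 1 cholangiocyte marker at an unadjusted p under 0.05. These marker calls are as fitted and are not corrected for the GC slopes of the libraries. The markers that rose have transcripts of 40.03% (Ptprc), 41.97% (Lrat), 47.61% (Adgre1) and 49.36% GC (Reln). Those that fell have 46.46% (Ttr), 51.73% (Serpina1c), 51.82% (Stab2), 54.98% (Des) and 55.83% GC (Apoa1). The part of the GC slopes in the marker calls was not tested. The part of the marker shifts in the changes of the synthases was not tested either.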

How the data were processed

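Liver RNA of 20 mice (5 per group) was sequenced. The authors prepared stranded polyadenylated libraries, sequenced them in 2 runs, aligned reads with STAR 2.6 to GRCm38.p6 without trimming and obtained gene counts with HTSeq 0.10.0; FastQC 0.10.1 was used for quality control (versions per the labels and methods). The deposited values are these raw counts. The annotation release and strand setting of the counting are not given in the sources used here, so antisense overlaps stay uncertain. The libraries of each run are not named. Columns were matched to mice by group and replicate number; for PCB 126 replicate 2 the parts of the label differ and the title was followed. Total counts were 21836506 to 36854887, and standard errors include the spread between mice. No library was a copy of another in its group: all 40 pairs within groups exceeded counting noise (chi-square at least 18.7 times its degrees of freedom). Pairs across groups were not checked in this way.

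TMM factors and a model with 1 coefficient per group (16 residual degrees of freedom) came from edgeR 4.0.16 in R 4.3.3, on genes whose counts summed to 10 or more. The quasi-likelihood test is two-sided, with Benjamini-Hochberg adjustment over 15522 genes. Coordinates, exon lengths and transcript GC content are from GENCODE M21 (GRCm38), and 21754 of 21780 identifiers matched. GC correction used as offset a spline (6 degrees of freedom) fitted per library to the mean-centred log2 CPM against GC content. Alternatives were RLE and upper-quartile factors, no filter, filterByExpr, an FPKM filter (at least 1 in 3 libraries and on average), DESeq2 1.42.0, only the groups compared, replicate number as a block, GC with length correction, GC slope as covariate, a threshold of 0.01, and fits without 1 mouse at a time. The fit was first run on data simulated without and with a GC trend in the combined exposure, and the outcome is not reported here. The members, the lists (other synthase genes, H/ACA subunits and assembly factors, mitochondrial granule partners, exposure genes, cell type markers) and the alternatives were chosen with earlier results of these data known. Named were all members, the other synthase genes, the H/ACA core, listed genes past the threshold, and for each changed member the 3 nearest genes, of which 2 are not reported here. Other data types of the study were not analysed here.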

Additional observations from a re-analysis of the deposited data

How the results depend on the processing

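With the combined exposure against HFD control, 5 members were called; 3 were called with only the groups compared, 3 at an adjusted p under 0.01, and 0 with GC correction, GC and length correction, GC correction with the replicate block, or the GC slope as covariate. Leaving out 1 mouse gave 3 to 6, with 3894 to 5679 genes called in all. Against Aroclor 1260, where edgeR called 0 members, DESeq2 called 2. Leaving out 1 mouse there gave 0 to 1, with 0 to 1036 genes in all. Against PCB 126, with 3 called, only the groups compared gave 1. An adjusted p under 0.01 and the same GC settings each gave 0 there. Leaving out 1 mouse gave 0 to 4 against PCB 126, with 4 to 3416 genes in all. For Aroclor 1260 and PCB 126 alone and for the interaction, 0 members were called under every alternative run. Over all counts of members, 128 alternatives stayed within 1.5 times the reported count and 19 did not. The 128 include every alternative for the single exposures and the interaction, where 0 members were called throughout. The tally therefore does not measure the stability of the calls that were made. What moved the 19 counts was not tested.

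The labels do not say whether mice of the same replicate number belong together, and the main fit used no block. Same-number correlations ran from −0.26 to 0.74, with 13 of 30 over 0.1. Their median was 0.050, against −0.012 for other numbers, and 10 of 20 libraries correlated best with their own number. With the replicate block, 4 members were called against HFD control (Dkc1 at 0.30, edgeR adjusted p = 0.0508, which was 0.0526 with RLE factors) and 3 against PCB 126.

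Of single log2FC under an alternative, 860 kept direction and side of the threshold, 94 no longer passed, 5 newly passed and 67 changed sign. With the combined exposure against HFD control, the GC slope covariate gave 0.097 for Pus1, −0.046 for Pus3, −0.031 for Pus10, 0.35 for Rpusd3, 0.13 for Rpusd4, −0.20 for Dkc1, 0.48 for Pusl1, 0.22 for Nhp2, 0.061 for Gar1, 0.18 for Ruvbl2, 0.085 for Rcc1l and −0.14 for Fastkd2. GC correction, GC and length correction, and GC correction with the replicate block gave Pus3 −0.16, −0.13 and −0.16, Trub1 −0.073, −0.079 and −0.066, Pusl1 0.24, 0.26 and 0.25 and Fastkd2 −0.19, −0.19 and −0.19, the first and last gave Dkc1 −0.0047 and −0.0070, and the second gave Gar1 0.027. Trub2 was −0.0052 with RLE, −0.015 with upper-quartile factors, −0.0032 with only the groups compared and −0.0046 with DESeq2. With Aroclor 1260 the covariate gave Pus1 0.15, Pus10 −0.049, Rpusd3 0.14 and Dkc1 −0.070. With PCB 126, Pus1 was 0.091, 0.10 and 0.11 under the 3 GC corrections and 0.16 with the covariate. Dkc1 there was −0.0095 (RLE), −0.042 (upper quartile), −0.0023 (no filter), −0.0080 (filterByExpr), −0.023 (FPKM filter), −0.0079 (replicate block), −0.023, −0.019 and −0.024 (GC corrections), −0.12 (covariate) and −0.0052 (DESeq2). Against PCB 126 the covariate gave Pus10 −0.086 and Rpusd3 0.059. Leaving out 1 mouse gave Dkc1 −0.057 to 0.068, Pus1 −0.12 to 0.033 and Rpusd3 −0.064 to 0.15 with PCB 126, and Trub2 −0.045 to 0.062 and Rpusd2 −0.039 to 0.33 with the combined exposure.

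Over all genes, 5089 of 15522 were called with the combined exposure as reported. Some alternatives tested other numbers of genes, so their counts are not directly comparable. These were 12869 with filterByExpr, 8995 with the FPKM filter and 17279 with no filter. By comparison, DESeq2 tested 10664 to 15257 and only the groups compared 14876 to 15050. GC correction called 668, GC and length 658, GC with block 933 and the covariate 335, without a count of genes shared between fits. With Aroclor 1260, where 0 were called, DESeq2 called 135, the block 26, GC with block 25 and the covariate 447. With PCB 126 (18 called) DESeq2 called 320, filterByExpr 68, the FPKM filter 47, the block 101, the covariate 676, GC correction 47, with length 60, with block 145, upper-quartile factors 9 and only the groups compared 4. Combined against Aroclor 1260 (64), DESeq2 called 1343, the FPKM filter 636, filterByExpr 292, the block 475, upper-quartile factors 251, RLE 107, no filter 13, GC correction 3, with length 3, with block 40, the covariate 0 and only the groups compared 0; combined against PCB 126 (2589), GC correction called 0, with length 0, with block 153 and the covariate 0. The interaction (0) gave 38 with the block, 44 with GC and block and 1 with DESeq2.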
